A study of Homo sapiens with 6 samples.

Results

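The chemokine genes IL8 (the current symbol is CXCL8), CXCL1, CXCL2, CXCL3, CXCL10, CXCL11, CXCL16, CCL2, CCL5 and CCL20 are described here, 10 of the 23368 genes counted. They were read from their rows by symbol, and the set was chosen by measured values, because the IL8 counts of SOX10-transfected cells were lower, so the differences between the groups below are a description of that choice and not a test of it. All 6 libraries came from 1205Lu, 1 established human line of metastatic melanoma. In 3 flasks the cells had received pCMV6-SOX10, a plasmid for expression of the neural crest transcription factor SOX10, and in 3 flasks the empty pCMV6 plasmid. Both groups were transiently transfected with FuGENE 6 and 7.8 µg of plasmid and were lysed 24 h later, so the control cells too were exposed to plasmid DNA and reagent. How many cells took up plasmid is not known here. In bulk RNA a lower level in every cell cannot be told apart from fewer cells with the transcript.

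Chemokines are small secreted proteins that attract leukocytes along a gradient, and each acts through a G protein-coupled receptor on the arriving cell. IL8, CXCL1, CXCL2 and CXCL3 bind CXCR2, and IL8 also CXCR1, and they attract neutrophils. CXCL10 and CXCL11 bind CXCR3 on activated T cells, CXCL16 binds CXCR6, CCL2 attracts monocytes through CCR2, CCL5 attracts T cells and monocytes, and CCL20 acts through CCR6. Many of these genes are switched on by NF-kB after cytokines or nucleic acids are sensed, CXCL10, CXCL11 and CCL5 also by interferon, and melanoma cells are a known source of IL8 and CXCL1.

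The libraries were shallow and of unequal depth. Reads assigned to genes ran from 2544420 to 4167393 in the SOX10 libraries and from 867917 to 2066520 in the controls, so that 1 read was worth 0.242 to 1.15 CPM, a count scaled to library size with TMM factors. SOX10 replicate 1 and control replicate 3 stood apart with 93.5 and 97.0 reads of the no-feature class per 100 assigned reads, against 121 to 135 in the other libraries. These reads were counted for no annotated feature and are called reads outside genes below. The annotation and the strand setting are not known here, so reads from introns or the opposite strand may be among them. SOX10 itself had 81, 47 and 143 reads in the libraries labelled SOX10 and 15, 18 and 44 in the shallower controls. This was 25.02 ± 8.45 against 19.6 ± 2.63 CPM (SD, n = 3 each; log2 fold change 0.35, SE 0.27, edgeR adjusted p 0.927), with overlapping groups, so the labels could not be checked from it. The summed level of 11 melanoma markers lay between 1077 and 1263 CPM, most of it from ERBB3, S100A1 and S100B, while MLANA, TYR and DCT had 4, 9 and 6 reads in all.

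The control regions before the transcription start show what several of these genes have in common apart from their levels. RefSeq promoters (GRCh38.p14) were matched by symbol for 7 of the 10 genes, all but CCL2, CCL5 and CXCL16. The 250 bases before each start were searched on both strands for GGAANTTCC, a palindromic form of the NF-kB site, for the AP-1 site TGANTCA and for the interferon-stimulated response element. No matches overlapped in these windows. The first motif was found before 6 of the 7 genes, all but CCL20, and in 0.826% of 35116 promoters of the same length. The AP-1 site was found before IL8 and CXCL11, and in 6.57% of all promoters, and the interferon element before CXCL10, and in 3.02%. These are matches of letters only and say nothing of binding. Other forms of the NF-kB site were not searched, so a window without a match, as in CCL20, may still hold one. The windows of 4 genes are shown, 5′ to 3′ on the strand of the gene and ending at the base before the start, with the matches in capitals. They stand for the gene that led to the choice (IL8, chr4:73740319-73740568, plus strand), its closest partner in level (CXCL1, chr4:73869143-73869392, plus strand) and the pair that binds CXCR3 (CXCL10, chr4:76023498-76023747, and CXCL11, chr4:76036071-76036320, both minus strand).
IL8: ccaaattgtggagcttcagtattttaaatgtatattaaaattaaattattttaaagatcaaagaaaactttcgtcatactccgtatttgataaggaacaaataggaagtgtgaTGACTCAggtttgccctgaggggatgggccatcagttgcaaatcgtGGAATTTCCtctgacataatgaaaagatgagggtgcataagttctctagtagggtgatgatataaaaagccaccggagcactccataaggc
CXCL1: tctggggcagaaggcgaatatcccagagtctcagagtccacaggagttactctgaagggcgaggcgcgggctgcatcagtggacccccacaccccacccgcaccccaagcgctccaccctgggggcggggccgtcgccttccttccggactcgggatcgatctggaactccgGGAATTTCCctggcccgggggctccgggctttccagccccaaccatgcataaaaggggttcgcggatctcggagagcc
CXCL10: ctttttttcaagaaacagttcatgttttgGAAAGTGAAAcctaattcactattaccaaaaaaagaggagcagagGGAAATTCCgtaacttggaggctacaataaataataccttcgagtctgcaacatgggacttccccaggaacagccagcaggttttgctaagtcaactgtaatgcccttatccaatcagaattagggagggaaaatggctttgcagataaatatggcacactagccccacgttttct
CXCL11: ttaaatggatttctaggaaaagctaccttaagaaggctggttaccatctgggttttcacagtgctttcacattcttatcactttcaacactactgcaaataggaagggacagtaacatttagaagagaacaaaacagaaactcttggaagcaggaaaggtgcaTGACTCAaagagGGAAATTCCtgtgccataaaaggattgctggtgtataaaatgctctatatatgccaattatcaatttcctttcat
In IL8 the NF-kB-type match GGAATTTCC began 91 bases before the start and the AP-1 match 137 bases before it. CXCL1, CXCL2 and CXCL3 had the same 9 letters 78, 77 and 78 bases before the start. Their windows had 70.1% to 81.4% identical aligned positions, so these 3 matches are not independent of each other. CXCL10 and CXCL11 had GGAAATTCC, which is the same site read on the other strand, 176 and 75 bases before the start. In CXCL11 an AP-1 match lay close to it, 87 bases before the start.

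How abundant the transcripts were is compared per kilobase of the longest transcript in GENCODE release 29. In the control libraries IL8 was the most abundant of the 10, with 130 ± 49.5 CPM per kilobase (SD, n = 3). Next came CXCL1 with 66.4 ± 29.01, CCL5 with 58.5 ± 34.4 and CCL2 with 54.8 ± 33.1 CPM per kilobase. These were followed by CXCL11 with 24.9 ± 22.8, CXCL16 with 16.7 ± 5.27 and CXCL10 with 7.51 ± 4.13 CPM per kilobase. IL8 stood above CXCL1 in 6 of 6 libraries, although the control ranges of the pair overlapped. Ranges overlapped between neighbours in the order in all but 1 case, CXCL2 above CXCL3. CXCL11 stood above CXCL16 only in control replicate 3, and below it in the other 5 libraries. CXCL2, CXCL3 and CCL20 were close to the limit of detection, with control means of 3.83, 1.72 and 0.846 CPM per kilobase. With the median length of the coding transcripts instead, IL8 had 184 CPM per kilobase and CCL2, with 73.8, stood above CXCL1 and CCL5.

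**Figure D1:**
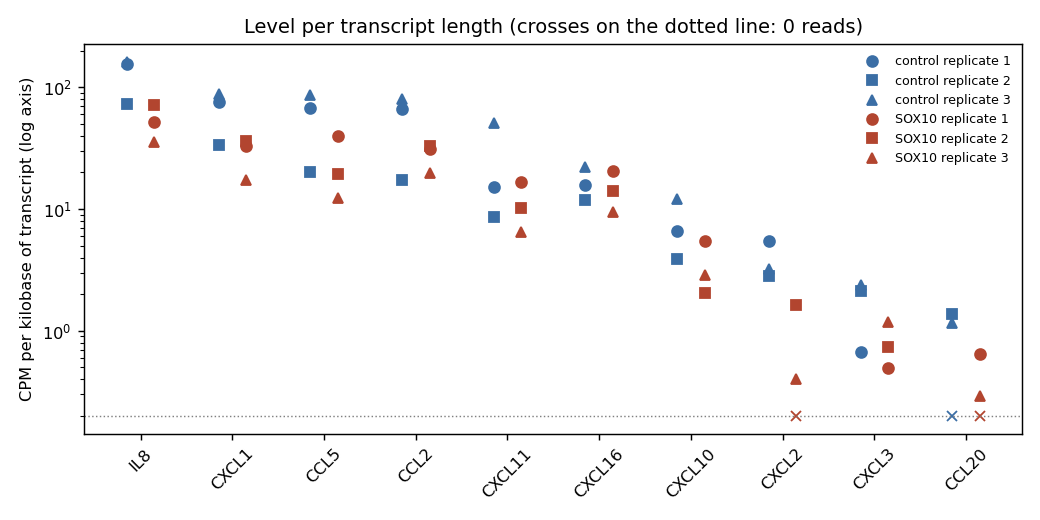
Level per kilobase of the longest transcript on a log axis for each of the 10 genes, 1 point per library, with blue for control and red for SOX10 and the shape for the replicate number. IL8 stands highest in all 6 libraries, and CXCL2, CXCL3 and CCL20 lie lowest, with crosses for libraries that had 0 reads.

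IL8, the main chemokine for neutrophils in this set, stood at 263, 125 and 277 CPM in control replicates 1, 2 and 3 and at 88.4, 121.7 and 60.6 CPM in SOX10 replicates 1, 2 and 3. All SOX10 libraries were below all controls, but control replicate 2 and SOX10 replicate 2 nearly met, at 124.6 CPM (95% exact Poisson interval 102 to 150, 108 reads) and 121.7 CPM (108 to 136, 305 reads). Such intervals cover counting error only. The means were 222 ± 84.4 CPM in controls and 90.2 ± 30.6 CPM in SOX10 libraries (SD, n = 3 each). On the log2 scale the difference was -1.34 (SE 0.22), which is 2.54-fold lower.

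CXCL1, which shares CXCR2 with IL8, had nearly the same pattern at a lower level in every library. It stood at 84.0, 36.9 and 97.5 CPM in the controls and at 36.2, 39.9 and 18.9 CPM in the SOX10 libraries. Its groups overlapped, since control replicate 2 lay below SOX10 replicate 2. On the log2 scale the difference was -1.28 (SE 0.26), which is 2.43-fold lower. The near relatives CXCL2 and CXCL3 were too rare for the test. CXCL2 had 6, 3 and 8 reads in the controls and 0, 5 and 2 in the deeper SOX10 libraries. Its levels, 6.63, 3.46 and 3.90 CPM against 0, 1.99 and 0.484 CPM, did not overlap. Pooled over libraries the ratio of SOX10 to control was 0.152, with a 95% exact interval from 0.0532 to 0.385 for counting error only. CXCL3 had 1, 3 and 8 reads against 3, 3 and 8, and its pooled ratio of 0.43 had an interval from 0.185 to 1.02. Of the stretches of 50 bases in the longest transcripts, 5.73% in CXCL1, 9.24% in CXCL2 and 3.02% in CXCL3 also occur in another of the 3 genes, so short reads from those stretches have no single source.

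**Figure D2:**
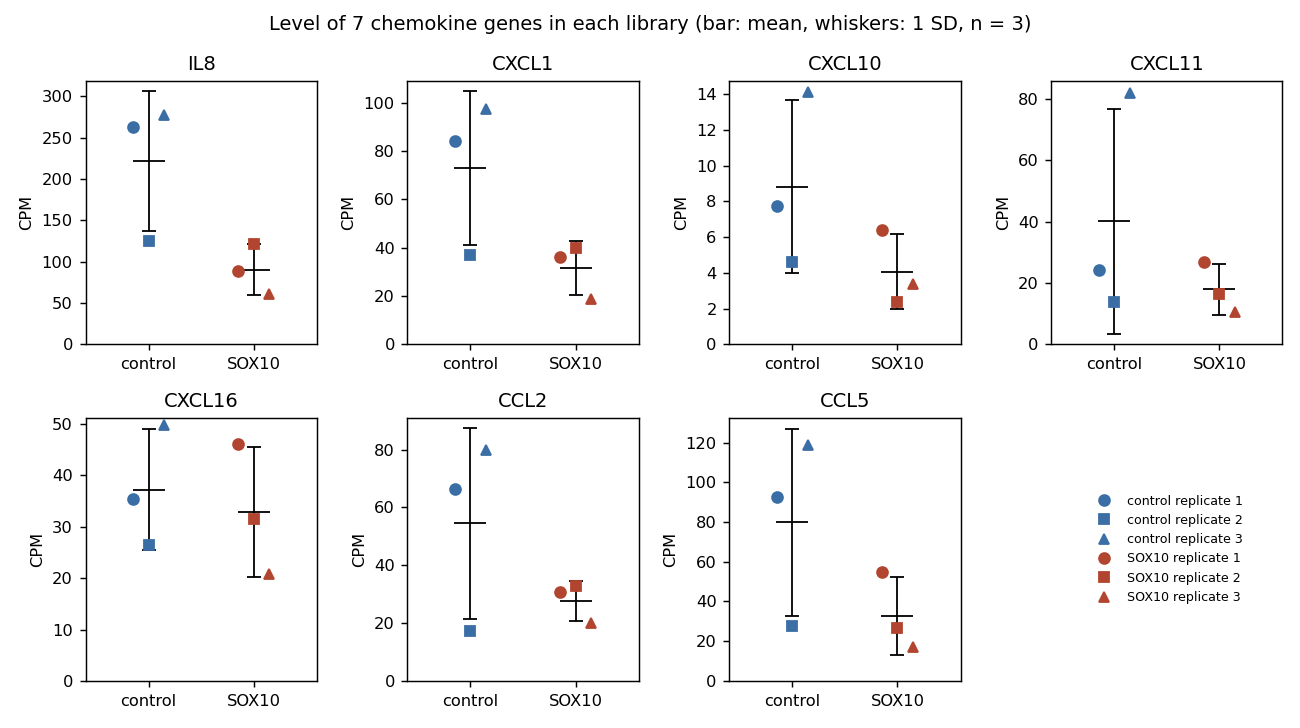
Level in CPM (axes from 0) of the 7 genes with enough reads for the test, 1 point per library, with the group mean as a bar and 1 SD as whiskers (n = 3 per group). IL8 is the gene of the 7 whose groups do not overlap, and control replicate 2, the blue square, is the lowest control in each panel.

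The chemokines for T cells depended on 1 library more than IL8 did. CXCL11 stood at 24.3, 13.8 and 81.9 CPM in the controls and at 26.8, 16.4 and 10.4 CPM in the SOX10 libraries. Control replicate 3 was thus 3 or more times as high as any other library, while the other 2 controls lay within the range of the SOX10 group. The log2 fold change of CXCL11 was -1.35 (SE 0.39), but -0.10 without control replicate 3 and -1.81 without SOX10 replicate 1. CXCL10, which shares the receptor CXCR3, was rarer, with 7, 4 and 29 reads in the controls and 24, 6 and 14 in the SOX10 libraries. Its levels of 7.74, 4.61 and 14.1 CPM against 6.43, 2.39 and 3.39 CPM overlapped, and its log2 fold change of -1.21 (SE 0.48) was -0.57 without control replicate 3. CXCL10 passed the filter on low counts through all 3 controls but only 1 SOX10 library.

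CXCL16, a chemokine made as a membrane protein and shed from the cell, was the tested member with the smallest difference. It stood at 35.4, 26.5 and 49.7 CPM in the controls and at 46.1, 31.5 and 20.8 CPM in the SOX10 libraries, and the groups lay across each other. The log2 fold change was -0.25 (SE 0.26), which was 0.08 without control replicate 3, 0.0026 without SOX10 replicate 3 and -0.61 without SOX10 replicate 1. On the opposite strand MED11 shares 3.04% of the exonic bases of CXCL16, and how the counting treated strand is not known here.

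Among the CC chemokines, CCL5 stood at 92.9, 27.7 and 119 CPM in the controls and at 54.6, 26.7 and 17.0 CPM in the SOX10 libraries. Control replicates 1 and 3 were above all SOX10 libraries, and control replicate 2 lay between SOX10 replicates 1 and 2. The log2 fold change was -1.36 (SE 0.34), but -1.99 without SOX10 replicate 1 and -0.88 without control replicate 3. Of the stretches of 50 bases in the longest CCL5 transcript 17.5% also occur in other genes. The monocyte attractant CCL2 stood at 66.3, 17.3 and 80.0 CPM in the controls and at 30.8, 32.7 and 19.9 CPM in the SOX10 libraries. Here control replicate 2 was the lowest of all 6 libraries. The log2 fold change of CCL2 was -1.07 (SE 0.30), and -0.61 without control replicate 3. CCL20, the ligand of CCR6, had 3 reads in each group, and a difference was not detectable at this depth.

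Of the 10 genes 7 had enough reads for the edgeR quasi-likelihood test, and of these 1, IL8, was called at an adjusted p under 0.05. Over all 10678 genes tested 0.112% were called, and 0.103% were called as lower in SOX10 libraries. Of the 7, 6 had an unadjusted p under 0.05, against 6.23% of all tested genes, and 7 had a negative log2 fold change, against 48.7%. Nothing is read from these counts, since this comparison chose the set. IL8 lay inside the threshold with an adjusted p of 0.00408 by edgeR, and CXCL1 just outside it with 0.0514. The groups did not overlap for 1 of the 7, against 6.03% of all tested genes that lay lower without overlap. The 7 log2 fold changes ran from -1.36 to -0.25 with a median of -1.28, beside a median of 0.0076 over all tested genes. Apart from CXCL16, they lay between -1.36 and -1.07.

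The call of IL8 and the number of calls rested on single libraries. Without control replicate 1 or control replicate 3, 0 of the 7 were called by edgeR, with adjusted p-values for IL8 of 0.144 and 0.138. Without both libraries with few reads outside genes the number was 0 and the edgeR adjusted p of IL8 0.200. DESeq2 also called 0, with an adjusted p of 0.635 for IL8 and 11 calls over all genes. For each of the 7 the SE by DESeq2 was larger than the edgeR SE given above. It was 0.446 against 0.217 for IL8 and 0.305 against 0.263 for CXCL16. Without control replicate 2, in which these genes were low, 4 were called, IL8, CXCL1, CCL2 and CCL5, and without SOX10 replicate 1 there were 3, IL8, CXCL1 and CCL5. The size of the IL8 difference moved less, with log2 fold changes from -1.61 to -1.12 over the 15 alternatives. With reads outside genes as a covariate IL8 had a log2 fold change of -1.39, and after thinning to equal depth -1.13. These last 2 settings, and leaving out both libraries, were chosen after seeing the data.

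**Figure D3:**
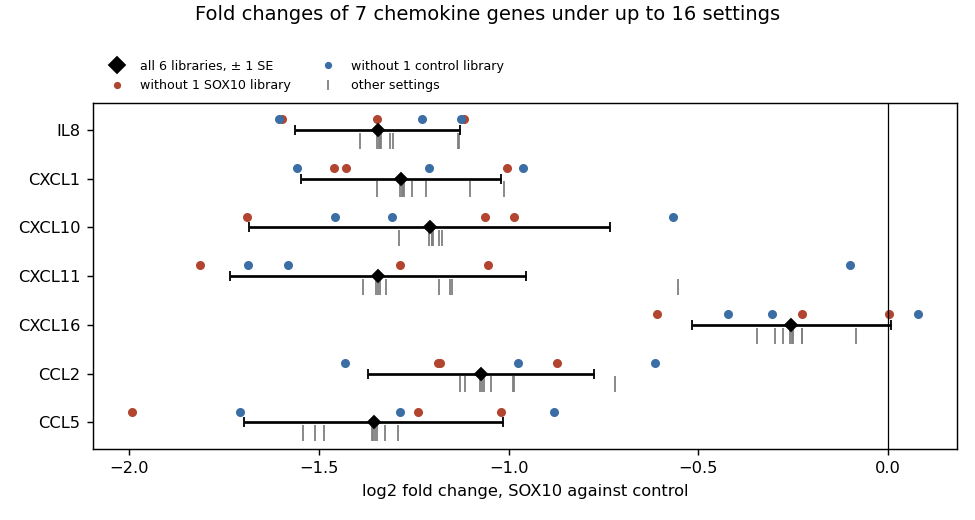
Log2 fold change of SOX10 against control for the 7 tested genes, with diamonds and bars for all 6 libraries ± 1 SE, dots for fits without 1 library and ticks for the other settings. IL8 stays between -1.61 and -1.12, whereas CXCL11 moves to -0.10 without control replicate 3.

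Within each group the chemokine genes moved together in part from flask to flask, over a wider range than the median gene. With group means removed, Pearson correlations of log2 CPM ran from 0.42 for IL8 and CXCL10 to 0.97 for IL8 and CXCL1. Over the controls the median range of the 7 was 1.46 on the log2 CPM scale, against 0.48 for all tested genes, and over the SOX10 libraries 1.11 against 0.37. Control replicate 3 was the highest control for 7 of 7 and control replicate 2 the lowest for 7 of 7. Over all tested genes these libraries were the highest for 32.0% and the lowest for 35.2%. In the SOX10 group replicate 3 was the lowest for 6 of 7, CXCL10 being lowest in replicate 2. SOX10 replicate 1 was the highest for CXCL10, CXCL11, CXCL16 and CCL5, and SOX10 replicate 2 for IL8, CXCL1 and CCL2. Control replicate 1 deviated from the mean of its group by 0.32 to 0.54 for IL8, CXCL1, CCL2 and CCL5, and by -0.31 to -0.03 for CXCL10, CXCL11 and CXCL16. Reads outside genes moved with these levels in part. They were fewest in control replicate 3 and SOX10 replicate 1 and most frequent in control replicate 2, while SOX10 replicate 3, where 6 of the 7 genes were lowest, had 122. Control replicate 2 was also the shallowest library and control replicate 3 the deepest control, but SOX10 replicate 3 was the deepest of all. The part of depth and of reads outside genes in this pattern was not tested.

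**Figure D4:**
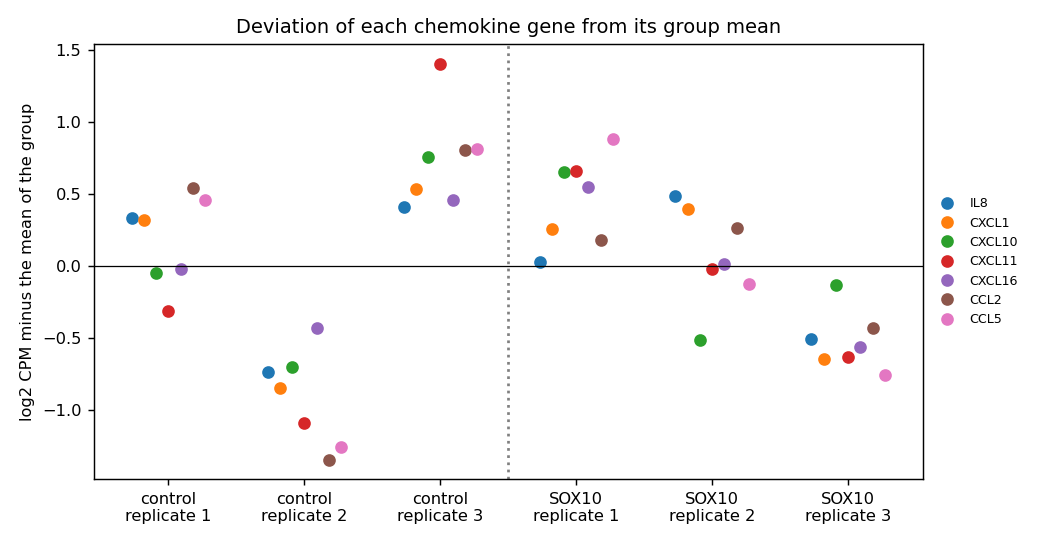
Log2 CPM of each of the 7 genes minus the mean of its group, by library, with 1 colour per gene. All 7 points lie below 0 in control replicate 2 and in SOX10 replicate 3, and all lie above 0 in control replicate 3.

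The share of IL8 among the reads of the 10 genes was lowest in SOX10 replicate 1. The 10 genes together had 582, 260 and 728 CPM in the controls and 291, 274 and 154 CPM in the SOX10 libraries, so that control replicate 2 lay below SOX10 replicates 1 and 2. The share of IL8 was 45.2%, 48.0% and 38.1% in the controls and 30.4%, 44.3% and 39.4% in the SOX10 libraries. Its 95% Wilson interval was 27.8% to 33.2% in SOX10 replicate 1 and lay between 35.7% and 54.5% in the other 5 libraries. SOX10 replicate 1 thus held the lowest share, and it held the highest share of CCL5, 18.8%, and of CXCL16, 15.9%.

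The genes whose levels were most like IL8 from library to library were sought among 10677 others by Pearson correlation of log2 CPM over the 6 libraries. With group means removed they were RRM2 (r = 0.996), CRTC2 (0.996), IL6 (0.993), TAX1BP1 (0.992) and HIST1H2BL (0.990), and 108 genes had an r over 0.95. Without that step they were ANKRD17 (0.993), TNRC6A (0.984), CXCL1 (0.982), MED9 (0.982) and PARD6B (0.980). Each of the 6 points of any 2 genes comes from the same library, with its depth and handling, so these values only describe the libraries. IL6, a cytokine often induced with IL8, stood at 66.3, 13.8 and 67.3 CPM in the controls and at 29.2, 42.7 and 11.9 CPM in the SOX10 libraries.

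Other chemokine ligands were mostly too rare for the test. Of 38 further ligands 1 had enough reads for a test, 11 had no read in any library, and the others had at most 30 reads in all. The tested one, CX3CL1, a chemokine anchored in the membrane, varied less between libraries. It stood at 156, 168 and 176 CPM in the controls and at 186, 138 and 160 CPM in the SOX10 libraries (log2 fold change -0.05, SE 0.13, edgeR adjusted p 0.974). Its groups overlapped, and its direction turned without SOX10 replicate 2, at 0.048. Receptor genes too had few reads. Of 23 receptor genes the decoy receptor DARC (now ACKR1) was tested, with 105 reads in all (log2 fold change 0.04, SE 0.46, edgeR adjusted p 0.998), a value that ran from -0.29 to 0.49 without any 1 library. CXCR1 and CXCR2, the receptors of IL8, had 6 and 5 reads over all libraries, and CXCR3 had 0. These 3 are named because their ligands are described here, outside the rule for named genes.

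Of 17 genes that cut, shed or display chemokines 13 were tested, and 0 rose or fell by edgeR over all genes. An unadjusted p under 0.05 was found for 3, against 6.23% of all tested genes, and the median log2 fold change was 0.17. DESeq2 called 0 as well. The gelatinase MMP2 stood at 234 ± 6.49 CPM in controls and 298 ± 10.03 CPM in SOX10 libraries (SD, n = 3 each) (log2 fold change 0.35, SE 0.10, edgeR adjusted p 0.337). The heparan sulfate carrier SDC1 had 0.62 (SE 0.22). Of 17 cytokines and receptors that induce chemokines 13 were tested, and 0 passed by edgeR or DESeq2, with a median of -0.15. An unadjusted p under 0.05 was found for 2, against 6.23% of all tested genes. These were IL6, at -0.93 (SE 0.37) on the log2 scale, and LIF, a related cytokine, at -0.35 (SE 0.14).

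All 21 genes of NF-kB signalling were tested, and 0 rose and 1 fell by edgeR, where 0.112% of all tested genes were called. This was TNFAIP3, an inhibitor in the pathway, at 26.5, 19.6 and 35.6 CPM in the controls and 9.64, 12.0 and 12.4 CPM in the SOX10 libraries. Its groups did not overlap, and it fell by 1.33 on the log2 scale (SE 0.27, edgeR adjusted p 0.0499). This result was known from earlier results of these data when the list was made, so no support is drawn from the call. The call was lost without any 1 library other than control replicate 2, with adjusted p-values by edgeR or DESeq2 from 0.00222 to 0.699 over all alternatives. Of the 21 log2 fold changes 15 were negative, against 48.7% of all tested genes, and their median was -0.20. An unadjusted p under 0.05 was found for 5, TNFAIP3, BCL3, NFKBIE and RELA with lower and MYD88 with higher levels in SOX10 libraries, against 6.23% of all tested genes. Of 17 genes of the interferon axis 15 were tested, 0 passed by edgeR or DESeq2 and the median was -0.17. In this list 3 had an unadjusted p under 0.05, against the same 6.23% of all tested genes. The interferon gene IL29 had 8, 4 and 12 reads in the controls and 7, 0 and 3 in the SOX10 libraries, and a log2 fold change of -2.67 (SE 0.67), which was -3.67 without SOX10 replicate 1. IL29 passed the filter on low counts through the controls, in which it was higher, and through 0 of the SOX10 libraries. The count of 3 and the median of this list include IL29, so no support for the list is drawn from it or from them. TBK1, a kinase that leads from nucleic acid sensors to interferon, had -0.46 (SE 0.15).

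The list of AP-1 and C/EBP factors held 16 genes, with their kinases and EGR1, and all were tested. By edgeR 0 rose and 1 fell, against 0.112% of all tested genes called, with a median of -0.22. An unadjusted p under 0.05 was found for 4, JUN, JUNB, FOSL1 and ATF3, all lower in SOX10 libraries, against 6.23% of all tested genes. The result of ATF3, like that of TNFAIP3, was known when its list was made, so no support is drawn from its call. The other genes named from this list and from that of NF-kB signalling were picked after their values were seen. The stress factor ATF3 fell by 0.86 (SE 0.17), from 99.5, 80.7 and 68.8 CPM to 44.99, 51.1 and 39.5 CPM, with an adjusted p of 0.0417 by edgeR. Its call was lost without any 1 library other than control replicate 3, and adjusted p-values by edgeR or DESeq2 ran from 0.00147 to 0.469 over the alternatives. In ATF3 the order of the controls differed from that of the chemokines, with control replicate 3 the lowest. Of 15 genes of AU-rich mRNA decay, the pathway that shortens the life of many chemokine transcripts, 14 were tested and 0 passed by edgeR or DESeq2. Their median was -0.0025, and 1 had an unadjusted p under 0.05, against 6.23% of all tested genes. On the log2 scale the decay factor ZFP36L2 differed by -0.34 (SE 0.12) and TIAL1, a binder of AU-rich elements, by 0.35 (SE 0.21).

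**Figure D5:**
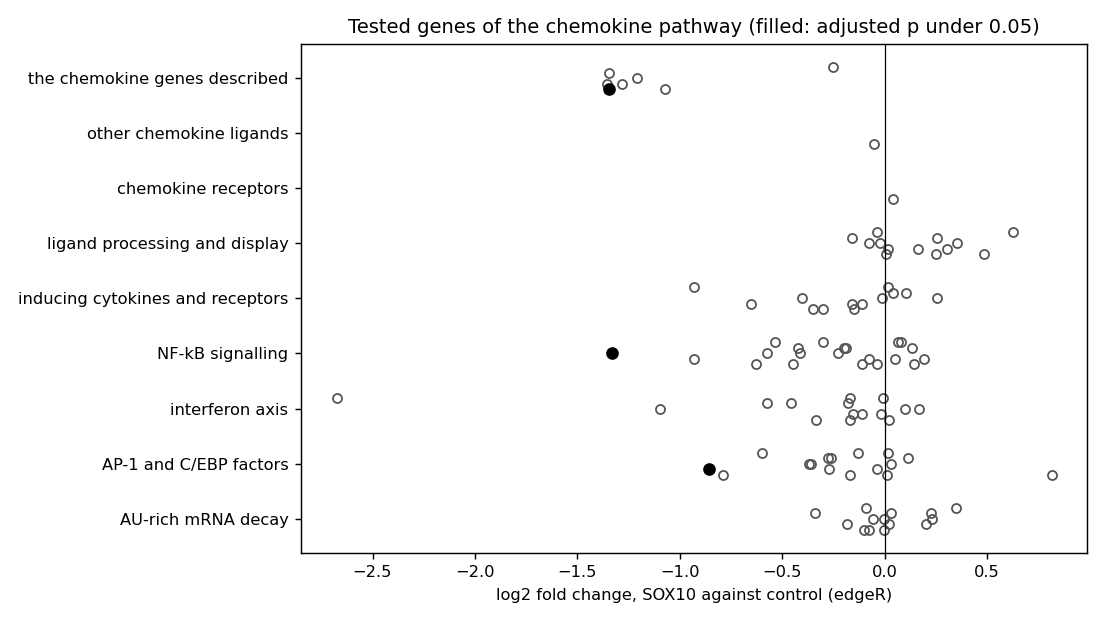
Log2 fold change of each tested gene of the chemokine set and of 8 lists of pathway genes, 1 circle per gene, filled where the adjusted p by edgeR was under 0.05. Filled circles are IL8, TNFAIP3 and ATF3, and 6 of the 7 chemokine genes lie between -1.36 and -1.07.

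Markers of leukocytes, which also make these chemokines, were near 0 with 1 exception. The 12 markers summed to 467, 257 and 623 CPM in the controls and 490, 388 and 199 CPM in the SOX10 libraries, almost all of it CD68, a lysosomal protein. The other 11 summed to 2.44 to 9.95 CPM in the controls and 4.55 to 7.02 CPM in the SOX10 libraries, and CD3D and CD3E had no reads. The 6 libraries stood in the same order by CD68 as by CXCL16, with 457, 253 and 621 CPM in the controls and 485, 382 and 192 CPM in the SOX10 libraries, and a log2 fold change of -0.36 (SE 0.24). Of the other 11 markers PTPRC had the most reads, 28 in all, against 5465 for CD68, and all libraries came from 1 melanoma line. What links CD68 to the chemokine levels was not tested. Endothelial markers summed to 39.0 to 57.8 CPM, fibroblast markers to 15.5 to 30.0 CPM and keratinocyte markers to 111 to 136 CPM over all libraries. Most of the keratinocyte sum came from KRT18 and DSP, while KRT5 and KRT14 had 6 and 20 reads in all. Most of the endothelial sum came from FLT1.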

How the data were processed

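Libraries of the 6 flasks were built with the Encore Complete system of NuGEN, per the labels' protocols. TopHat 1.4.0, HTSeq, DESeq and hg19 are listed in the submitters' processing notes. The annotation, the strand setting and the read length were not given. The authors deposited raw read counts for each gene symbol, in whole numbers. The 5 class rows that name no gene stayed out of library sizes and tests.

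The edgeR 4.0.16 quasi-likelihood test (R 4.3.3) used TMM scaling, filterByExpr (minimum count 10, minimum total 15), no covariate and Benjamini-Hochberg adjustment over 10678 genes, with a threshold of 0.05. CPM of all genes were scaled by the same factors, and correlations used log2 CPM with a prior count of 2. On simulated counts of this comparison (10506 genes) 67 of 97 genes with a 2-fold change and 91 of 95 with a 4-fold change were found, with 11 false calls. Pairs of replicates differed by more than sampling noise (chi-square per degree of freedom 1.98 to 6.50). The replicates are biological per the series text, with no further detail. The edgeR p-values measure the spread between these libraries of 1 cell line, with each gene's spread moderated by that of the other genes. The SE of edgeR, derived from the same test, can be smaller than a gene's own spread would give.

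The members and the gene lists were chosen with earlier results of these data known, among them those of TNFAIP3, ATF3 and IL29. Named genes are SOX10, all members, the called genes of each list or else the 2 with the smallest p, and the 5 genes most like IL8 by each measure. Lengths and shared sequence come from GENCODE release 29 and promoters from RefSeq, both on GRCh38, another build than that of the counts. Alternatives were 2 other scalings, 2 other filters, DESeq2 1.42.0, the replicate number as a block, each library left out and, chosen after seeing the data, 3 more.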

Additional observations from a re-analysis of the deposited data

How the results depend on the processing

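With 12 genes called over all genes by edgeR, 48 were called without a low-count filter, 43 with reads outside genes as a covariate, 7 without both libraries with few reads outside genes, and 6 to 18 without any 1 library. Of the chemokine genes 1 was called. This became 2 with library totals as the scaling, 2 with a filter of 1 CPM in 3 libraries, 5 without a filter, 5 with the covariate, 0 with DESeq2, 0 without both libraries, and 0 to 4 without any 1 library. One gene of the cytokine list was called without a filter (count 1 against 0). For NF-kB signalling the count of 1 became 0 without both libraries and 0 after thinning, and was 0 to 1 without any 1 library. For AP-1 and C/EBP factors 1 became 2 without a filter, 2 with the covariate, 0 without both libraries, and 0 to 1 without any 1 library. CX3CL1 had a log2 fold change of 0.037 after thinning and 0.048 without SOX10 replicate 2, and DARC -0.29 without SOX10 replicate 3, -0.17 without control replicate 1 and -0.18 without control replicate 3, with 0.49 without control replicate 2. The level of IL8 in controls was 184 CPM per kilobase with the median coding length. Unless named in the text, the cause of these shifts was not tested.

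With the replicate number as a block 7 genes were called in all, with 0 chemokine genes, 0 of NF-kB signalling and 0 of AP-1 and C/EBP factors. No pairing of the libraries by these numbers was seen: deviations of same-numbered libraries had correlations of -0.030, -0.033 and -0.14 over genes. At this depth a weak pairing could go unseen. Of 486 values recomputed, 428 kept their direction and their side of the threshold or stayed within the spread. For each chemokine gene this tally took the fold change and not the call, and IL8 was called in 10 of 15 alternatives. CXCL16 counts as kept although it turned to 0.08 without control replicate 3. Lists that had 0 calls throughout are also among the 428. The floor of 3 reads behind a zero count was 0.727 to 3.46 CPM, so CXCL2, CXCL3, CCL20 and most receptors were near the floor.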

Other observations

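The ratio of IL8 reads to CXCL11 reads set the libraries in another order than either gene's level. It was 10.8, 9 and 3.39 in control replicates 1, 2 and 3, and 3.30, 7.44 and 5.81 in SOX10 replicates 1, 2 and 3. The lowest ratios were thus in SOX10 replicate 1 and control replicate 3, the 2 libraries with the fewest reads outside genes. IL8 to CCL5 ranged less, from 1.62 in SOX10 replicate 1 to 4.55 in SOX10 replicate 2, with 2.83, 4.50 and 2.33 in the controls. These ratios do not depend on the scaling between libraries.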
